A study of Mus musculus with 8 samples.

Results

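SV-LEC cells, which the study describes as mouse lymphatic endothelial cells, were examined with and without TGFβ1. Studied were the genes that carry peptides to the cell surface on classical MHC class I molecules. They were the 10 genes H2-K1, H2-D1, B2m, Tap1, Tap2, Tapbp, Psmb8, Psmb9, Psmb10 and Nlrc5 of 55471 genes in the count table. Each was found by its symbol, which occurred once in the table, and the rule that lists the 10 symbols uses no measured value, although it was set with earlier results of these data known. After exposure to TGFβ1, 8 of the 10 genes rose and none fell, and Tap2 and Tapbp were not called. Of all 13818 genes tested, 37.6% were higher and 38% lower.

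The study asked which factors TGFβ1 induces in lymphatic endothelial cells that could attract breast cancer cells. RNA of SV-LECs that were left untreated (n = 4 libraries) or kept with 10 ng/ml TGFβ1 for 72 h (n = 4 libraries) was sequenced. Cells of both groups carry the label SV40-immortalized and derive from mesenteric adventitial tissue, and the labels give no mouse strain, so the MHC haplotype of the line is not given in the sources used here. The study's methods describe the 4 samples of a group as technical replicates of 1 line, so that errors and p-values refer to the spread between libraries and not between independent experiments.

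Class I molecules consist of a heavy chain, the light chain β2-microglobulin and a short peptide. Peptides are cut from cytosolic proteins by the proteasome, pumped into the endoplasmic reticulum by the TAP transporter and fitted into the heavy chain with the help of tapasin and its partners, and in cells exposed to interferon the catalytic proteasome subunits are exchanged for immunoproteasome subunits. NLRC5 is the transactivator of this gene set and acts through an upstream module of S, X1, X2 and Y boxes. Lymphatic endothelial cells are known to present peptides on class I molecules to T cells.

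Total counts lay between 19182616 and 26077972 in untreated libraries and between 18952504 and 26386941 in TGFβ1-treated libraries. Values are given as CPM, counts relative to the library size as scaled by edgeR's TMM method, and a floor of 3 counts in a library corresponds to 0.113 to 0.162 CPM, which covers counting error only. Within the groups, the libraries differed by more than sampling noise in all 12 pairs, with chi-square per degree of freedom between 2.37 and 7.84. The line was checked against its label, which the markers bore out only in part. Of 12 lymphatic endothelial markers 5 passed the filter on low counts, among them Pdpn at 342 ± 19.5 and Flt4 at 21.6 ± 1.23 CPM in untreated libraries (SD, n = 4), while Pecam1, Cdh5, Prox1, Lyve1, Sox18, Emcn and Ccl21a had at most 5 counts in each library. The summed level of the 12 markers was 425 to 460 CPM in untreated and 449 to 462 CPM in treated libraries, most of it from Pdpn. For comparison, 6 fibroblast and smooth muscle markers summed to 757 to 817 CPM in untreated libraries. Among them Dcn stood at 312, Acta2 at 264, Pdgfra at 160 and Pdgfrb at 44.7 CPM in mean, and Lum and Myh11 at 0.339 and 0.239 CPM. Of the tested lymphatic endothelial markers, Kdr (log2 fold change 0.93), Flt4 (0.44) and Nrp2 (0.41) rose, Pdpn fell slightly (-0.13), and Tek was not called.

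The sequence upstream of the heavy chain and light chain genes is shown first, because this is where the S-X-Y module lies to which NLRC5 is recruited. RefSeq promoters on GRCm38.p6 were available for 8 of the 10 genes, with no entry for Tap2 and Nlrc5. The 200 bases before the start of H2-K1 (chr17:34000348-34000547, minus strand) and of B2m (chr2:122147486-122147685, plus strand) are given 5′ to 3′. Capitals mark, in this order, a κB motif of 10 letters (in H2-K1), the core of an interferon response element (TTTCNNTTC, in H2-K1) and, in both, an X2 motif (TGACG) followed after 20 bases by an inverted CCAAT box (ATTGG) of the Y element. Only these exact letters were searched. Bases in lower case, those of B2m included, can therefore hold other forms of a κB motif or an interferon response element.
H2-K1 upstream: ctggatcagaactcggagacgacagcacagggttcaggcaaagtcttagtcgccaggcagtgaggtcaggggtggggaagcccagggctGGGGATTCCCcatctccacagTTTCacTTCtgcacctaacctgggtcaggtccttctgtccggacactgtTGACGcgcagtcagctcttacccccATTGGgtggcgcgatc
B2m upstream: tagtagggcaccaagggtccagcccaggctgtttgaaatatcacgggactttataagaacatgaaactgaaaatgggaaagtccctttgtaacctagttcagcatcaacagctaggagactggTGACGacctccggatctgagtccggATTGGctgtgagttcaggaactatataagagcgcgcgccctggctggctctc

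The X2 and Y letters of the 3 genes that encode the chains of class I are set side by side, each over 30 bases, because spacing and letters are shared while the bases between them differ. The H2-K1 element lies at chr17:34000359-34000388 (minus strand), that of H2-D1 at chr17:35262993-35263022 and that of B2m at chr2:122147609-122147638, both on the plus strand. In GENCODE M21 the pieces of H2-K1 and B2m lie outside exons and those of H2-D1 within an exon of a longer transcript.
H2-K1 X2 to Y: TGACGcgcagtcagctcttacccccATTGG
H2-D1 X2 to Y: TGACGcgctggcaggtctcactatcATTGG
B2m X2 to Y: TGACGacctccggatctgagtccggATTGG

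The κB motif and the interferon response element core of the heavy chain genes are shown in the same way, at chr17:34000429-34000458 (minus strand) for H2-K1 and chr17:35262923-35262952 (plus strand) for H2-D1.
H2-K1 κB to response element: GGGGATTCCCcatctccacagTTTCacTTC
H2-D1 κB to response element: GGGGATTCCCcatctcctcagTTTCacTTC

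The 10 letters in capitals on the left are the κB motif that was searched. Over the 100 bases from the κB motif to the Y letters, H2-K1 and H2-D1 had the same base at 89 positions. Each motif was searched on both strands in the 250 bases before the starts of 32851 RefSeq promoters, and none of the 3 patterns overlapped another in these sequences. The X2 and Y pair with its gap of 20 bases, which was chosen after the promoters of the class I genes had been read, was found in 0.0913% of promoters, which belonged to 26 genes, among them H2-K1, H2-D1, B2m and the non-classical class I gene H2-M3. The κB motif was found in 0.0852% of promoters, H2-K1, H2-D1, H2-Q6 and H2-Q7 included, and the interferon response element core in 6.31%. The κB letters searched are those that stand in H2-K1 and H2-D1, with no other letter allowed. A match in these genes was thus fixed by the choice of letters, and the low share is no test. Among the promoters of Tap1, Tapbp, Psmb8, Psmb9 and Psmb10 these letters were not in the window searched. Other forms of the motifs and other gaps between X2 and Y were not searched, so a missing match does not show that an element is absent. A match describes letters and not a binding site.

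The levels of both heavy chain genes were close to each other in every library and rose together. H2-K1 (ENSMUSG00000061232, GRCm38 chromosome 17 from 33996017 to 34000347, minus strand) encodes the K heavy chain and was at 251, 299, 294 and 229 CPM in untreated libraries 1 to 4 and at 500, 448, 561 and 493 CPM in treated libraries 1 to 4. Every treated library lay above every untreated library. The mean rose from 268 ± 33.8 to 501 ± 46.5 CPM (SD, n = 4), with a log2 fold change of 0.90 (SE 0.0839, FDR 1.14e-25 by edgeR's likelihood ratio test). In these bulk samples, more cells that express a gene and more RNA of it per cell cannot be told apart. H2-D1 (ENSMUSG00000073411, chromosome 17 from 35262730 to 35267499, plus strand) encodes the D heavy chain and was at 292, 345, 355 and 284 CPM without and at 561, 536, 633 and 586 CPM with TGFβ1. The groups were again apart, and the log2 fold change was 0.86 (SE 0.0742, FDR 6.02e-30, edgeR). Of the stretches of 75 bases, the read length, in their GENCODE M21 transcripts, 3.10% for H2-K1 and 5.56% for H2-D1 also occur in another gene, in most cases a class I gene or pseudogene, and 24 stretches are shared between both. These shares refer to the annotated alleles, and could differ for the alleles of the line, whose haplotype is not given.

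**Figure D1:**
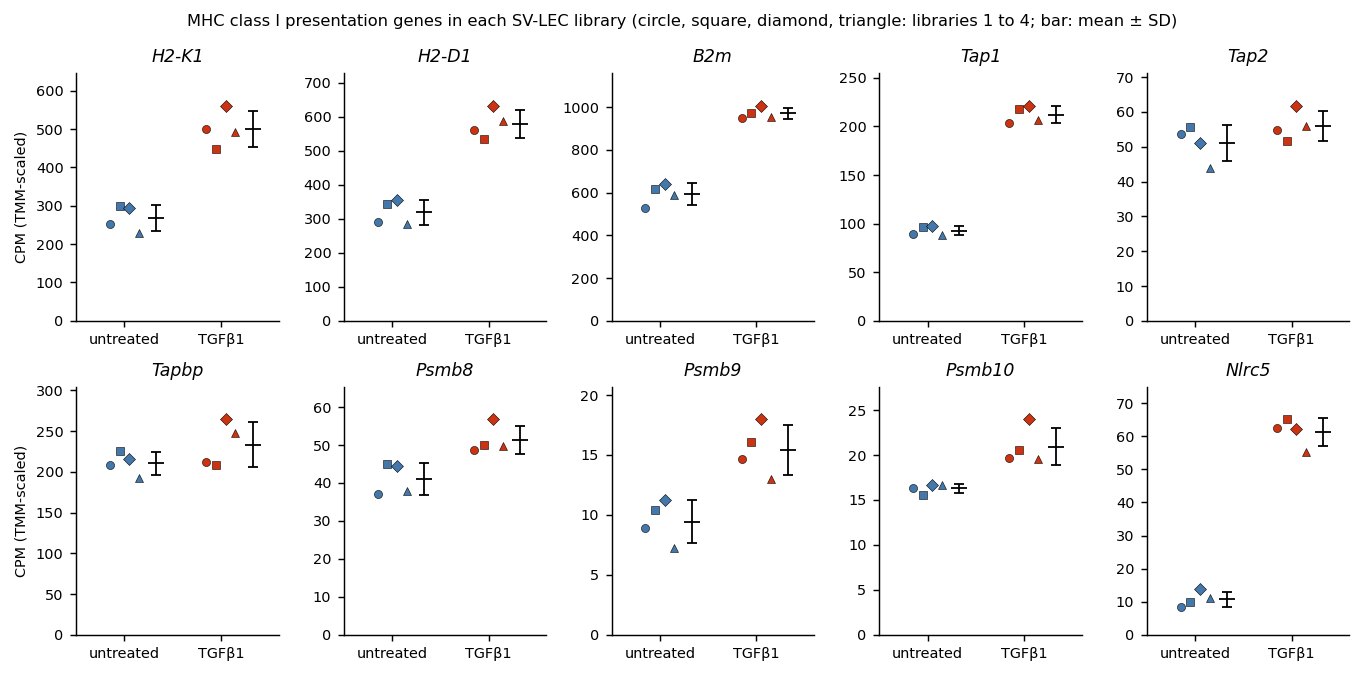
TMM-scaled counts (CPM) of the 10 class I presentation genes in each library, by treatment, with 4 libraries per group (circle, square, diamond and triangle for libraries 1 to 4) and the mean with SD beside them. In 8 panels every treated library lies above every untreated one, and in the panels of Tap2 and Tapbp the groups overlap.

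B2m (ENSMUSG00000060802, chromosome 2 from 122147686 to 122153083, plus strand) encodes the light chain β2-microglobulin, without which heavy chains do not reach the surface. It was at 526, 616, 642 and 589 CPM in untreated libraries and at 950, 972, 1008 and 953 CPM in treated libraries. The lowest treated value stood well above the highest untreated one, and no stretch of read length in B2m was shared with another gene. The mean rose from 593 ± 49.9 to 971 ± 26.5 CPM (SD, n = 4), a log2 fold change of 0.71 (SE 0.0561, FDR 1.46e-35, edgeR).

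Of the genes of the TAP transporter, whose products act as a heterodimer, Tap1 rose and Tap2 was not called. Tap1 (ENSMUSG00000037321, chromosome 17 from 34187553 to 34197225, plus strand) was at 89.4, 96.2, 97.4 and 88.5 CPM in untreated libraries and at 203, 218, 221 and 206 CPM with TGFβ1. The libraries of a group stood close together, and the gene rose from 92.9 ± 4.55 to 212 ± 8.68 CPM (SD, n = 4), a log2 fold change of 1.19 (SE 0.0483, FDR 1.37e-130, edgeR). Tap2 (ENSMUSG00000024339, chromosome 17 from 34203527 to 34216321, plus strand) was at 53.5, 55.6, 51.1 and 43.8 CPM without and at 55.0, 51.6, 61.8 and 55.9 CPM with TGFβ1. Its groups overlapped, and its log2 fold change of 0.13 (95% interval -0.01 to 0.28, FDR 0.0963, edgeR) did not pass the threshold of 0.05. Without untreated replicate 2 the FDR of Tap2 was 0.0386 (log2 fold change 0.18), and without treated replicate 2 it was 0.0404 (0.17), so that the absence of a call rested on these libraries.

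Tapbp (ENSMUSG00000024308, chromosome 17 from 33915899 to 33929292, plus strand) encodes tapasin, the chaperone that bridges TAP and the empty heavy chain. It was at 209, 226, 216 and 192 CPM in untreated libraries and at 213, 208, 264 and 248 CPM in treated libraries. Treated libraries 1 and 2 lay within the untreated range, and treated libraries 3 and 4 lay above it. The log2 fold change was 0.15 (SE 0.0747, FDR 0.0648, edgeR), and DESeq2 gave 0.15 with an FDR of 0.0475. The gene was also called when untreated replicate 2 (log2 fold change 0.18, FDR 0.0379), treated replicate 1 (0.19, FDR 0.0245) or treated replicate 2 (0.20, FDR 0.00996) was left out. Tapbp shares 17.5% of its stretches of read length with the antisense gene Gm19412, which stood at 0.641 ± 0.155 CPM without and 1.95 ± 0.217 CPM with TGFβ1 (SD, n = 4). The sources used here do not state whether counting used the strand, and the part of antisense reads in this result was not tested.

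All 3 immunoproteasome genes rose, with log2 fold changes between 0.32 and 0.70. Psmb8 (ENSMUSG00000024338, chromosome 17 from 34197721 to 34201454, plus strand), which encodes the chymotrypsin-like subunit β5i, was at 37.1, 45.1, 44.4 and 37.9 CPM in untreated libraries and at 48.7, 49.95, 56.7 and 49.8 CPM in treated libraries. Its groups did not overlap, although the gap between them was small, and the log2 fold change was 0.32 (SE 0.0751, FDR 4.51e-05, edgeR). Psmb9 (ENSMUSG00000096727, chromosome 17 from 34181987 to 34187764, minus strand) encodes β1i and was at 8.87, 10.4, 11.3 and 7.20 CPM without and at 14.7, 16.1, 18.0 and 13.0 CPM with TGFβ1. It had 142 to 365 counts per library, did not overlap between groups and rose by a log2 fold change of 0.70 (SE 0.135, FDR 4.27e-07, edgeR). Psmb10 (ENSMUSG00000031897, chromosome 8 from 105935735 to 105938444, minus strand) encodes β2i and was at 16.3, 15.5, 16.6 and 16.7 CPM without and at 19.6, 20.6, 23.96 and 19.6 CPM with TGFβ1. Every treated library lay above the untreated ones, and the log2 fold change was 0.36 (SE 0.0790, FDR 8.76e-06, edgeR).

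Nlrc5 (ENSMUSG00000074151, chromosome 8 from 94434356 to 94527272, plus strand) had the largest fold change of the 10 genes. It was at 8.48, 9.88, 13.8 and 11.0 CPM in untreated libraries and at 62.4, 65.1, 62.1 and 55.4 CPM in treated libraries, from 176 to 316 and from 1154 to 1427 counts. The groups were far apart, and the mean rose 5.67-fold by edgeR's estimate, from 10.8 ± 2.26 to 61.3 ± 4.13 CPM (SD, n = 4). The log2 fold change was 2.50 (SE 0.105, FDR 7.13e-120, edgeR), and 2.35% of all tested genes had a larger one. That share was 8.60% for Tap1, 12.3% for H2-K1, 12.8% for H2-D1, 16.1% for B2m, 16.3% for Psmb9, 27.4% for Psmb10, 29.5% for Psmb8, 39.4% for Tapbp and 40.3% for Tap2.

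All 10 genes passed the filter on low counts. Of the 13818 genes tested, 37.6% were higher and 38% were lower at an FDR under 0.05, together 75.6%, and 8 of 10 class I presentation genes were higher and 0 lower. For the 8 called genes the untreated and treated libraries did not overlap, which held with treated above untreated for 34.7% of tested genes and with treated below for 35.1%. An exact two-sided permutation test of the mean CPM gave p = 0.0286 for each of these 8, the smallest value that 4 against 4 libraries allow, p = 0.2 for Tap2 and p = 0.257 for Tapbp. The median log2 fold change of the 10 genes was 0.71, against -0.01 over all tested genes. Together the 10 genes took 0.152% to 0.178% of all counts in untreated libraries and 0.251% to 0.285% in treated libraries.

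Marker genes of other cell types were at hand for comparison. Of 9 leukocyte markers, 7 had at most 3 counts in every library, Ptprc, Cd3e, Itgam and Itgax among them, and the summed level was 5.97 to 8.25 CPM in untreated and 16.2 to 18.6 CPM in treated libraries, most of it from Cd68, a lysosomal protein of macrophages that other cells also make. The summed level of 6 fibroblast and smooth muscle markers was 757 to 817 CPM without and 1163 to 1236 CPM with TGFβ1, and that of 5 epithelial markers, most of it from Krt14, was 34.2 to 40.7 and 38.0 to 45.1 CPM. Called markers moved in both directions among the fibroblast and smooth muscle genes, and only upwards among the leukocyte and epithelial ones. Cd68 (log2 fold change 1.19) and Csf1r (2.27, from 0.278 ± 0.124 to 1.38 ± 0.348 CPM, SD, n = 4) rose among the leukocyte markers, and Acta2 (1.89), Myh11 (1.80) and Pdgfrb (0.63) rose while Dcn (-1.91) and Pdgfra (-1.47) fell among the mesenchymal ones. Of the epithelial markers Krt8 (1.99) and Krt18 (2.47) rose, from 0.273 ± 0.179 to 1.11 ± 0.246 and from 0.226 ± 0.142 to 1.24 ± 0.432 CPM (SD, n = 4), and Krt14 was not called. The part of these markers in the result was not tested.

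Levels of different genes were compared per length, as CPM per kilobase of merged exons of GENCODE M21. In untreated libraries B2m stood highest, at 690 ± 58.1 CPM per kilobase (SD, n = 4), followed by H2-D1 at 124 ± 14.1, H2-K1 at 91.4 ± 11.5 and Tapbp at 58.1 ± 3.91. Tap1 followed at 17.0 ± 0.832, Tap2 at 13.5 ± 1.37, Psmb8 at 12.2 ± 1.25 and Psmb10 at 9.56 ± 0.308, and Psmb9 and Nlrc5 came last at 2.58 ± 0.489 and 1.27 ± 0.266 CPM per kilobase. Among neighbours in this order, the ranges of mean ± SD overlapped only for Tap2 and Psmb8. In treated libraries the order was B2m at 1129 ± 30.8, H2-D1 at 224 ± 16.1, H2-K1 at 170 ± 15.8, Tapbp at 64.3 ± 7.54 and Tap1 at 38.8 ± 1.58 CPM per kilobase. Psmb8 at 15.2 ± 1.08 and Tap2 at 14.8 ± 1.13 again had overlapping ranges, and Psmb10 stood at 12.3 ± 1.21. Nlrc5 at 7.21 ± 0.487 CPM per kilobase stood above Psmb9 at 4.21 ± 0.579, the reverse of their order in untreated libraries. Merged exons join all annotated transcripts of a gene, and came to 8493 bases for Nlrc5 and 3660 for Psmb9. The order of genes depends on these lengths, and other lengths were not tested.

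Ratios of gene pairs within a library, which need no scaling between libraries, were compared for 7 pairs. For each immunoproteasome subunit the partner was the constitutive subunit that it replaces. The log2 count ratio of Psmb8 to Psmb5 was 1.35 ± 0.183 without and 1.90 ± 0.121 with TGFβ1 (SD, n = 4), that of Psmb9 to Psmb6 was -3.97 ± 0.248 and -3.13 ± 0.173, and that of Psmb10 to Psmb7 was -2.81 ± 0.0579 and -2.48 ± 0.127. In these 3 pairs every treated ratio lay above every untreated ratio. Per merged exon length, there were 0.676 Psmb8 reads for each Psmb5 read in untreated and 0.990 in treated libraries, 0.0326 and 0.0585 Psmb9 reads for each Psmb6 read, and 0.286 and 0.360 Psmb10 reads for each Psmb7 read. The level of these values depends on the merged lengths, such as 3381 bases for Psmb8 and 899 for Psmb5, and other lengths were not tested. The ratio of Tap1 to Tap2 was higher by 1.05 on the log2 scale, from 0.87 ± 0.127 to 1.92 ± 0.105, also without overlap. These 4 pairs reached the smallest p of the exact permutation test, 0.0286, which adjusted over 7 pairs is 0.05 and thus not under the threshold.

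The ratio of the heavy chains to each other differed little between the groups. The log2 ratio of H2-K1 to H2-D1 was -0.25 ± 0.0476 in untreated and -0.21 ± 0.0485 in treated libraries (SD, n = 4), a difference of 0.04 (exact permutation p = 0.314, adjusted p = 0.314). Relative to B2m, H2-K1 was higher by 0.19 (exact permutation p = 0.0857, adjusted p = 0.12) and H2-D1 by 0.15 (exact permutation p = 0.114, adjusted p = 0.133) on the log2 scale, and in both pairs the groups overlapped. These values did not pass the threshold, which does not show that the ratios were equal.

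**Figure D2:**
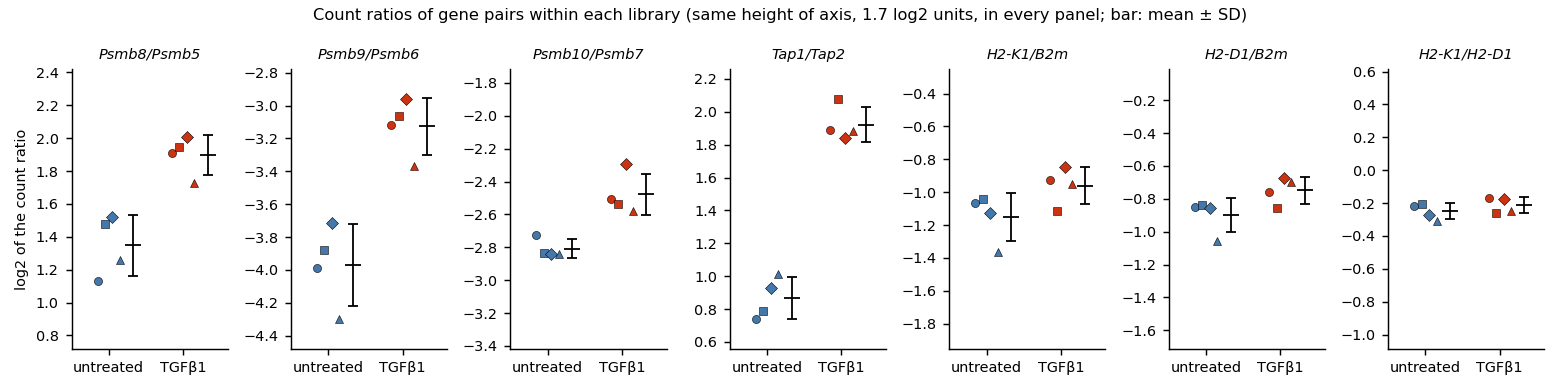
Log2 count ratio of 7 gene pairs in each library by treatment, with 4 libraries per group and the mean with SD, on axes of equal height. The ratios of the immunoproteasome genes to Psmb5, Psmb6 and Psmb7 and of Tap1 to Tap2 do not overlap between groups, and the 3 ratios among H2-K1, H2-D1 and B2m do.

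Tap1, Psmb8, Psmb9 and Tap2 lie side by side in the class II region of the MHC, and their log2 fold changes ranged from 0.13 to 1.19. The RefSeq starts of Psmb9 and Tap1, which are transcribed away from each other, are 225 bases apart, and in GENCODE M21 their exons overlap by 212 bases on opposite strands. Of the stretches of read length, 2.40% in Tap1 and 3.44% in Psmb9 are shared between them. Across this short interval the log2 fold change was 0.70 for Psmb9 and 1.19 for Tap1, followed by 0.32 for Psmb8, which begins 10.2 kb from the start of Tap1, and 0.13 for Tap2, which begins at 16.0 kb. Psmb8 and Tap2 overlap the antisense genes Gm20496 and Gm15821, which had at most 2 counts in every library. Further out, H2-DMa, a chaperone of class II peptide loading, rose by a log2 fold change of 0.83 (FDR 7.71e-09, edgeR) and H2-DMb1, its partner chain, was lower (-0.27, FDR 9.59e-07, edgeR).

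**Figure D3:**
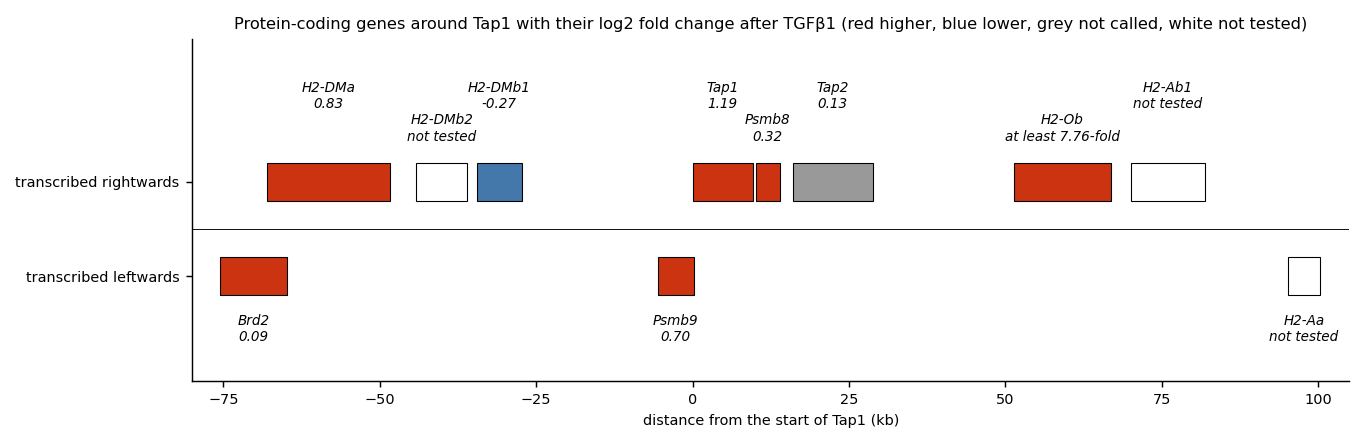
Protein-coding genes around Tap1, drawn to scale by distance from its start in kb and by direction of transcription, with the log2 fold change after TGFβ1 and, for H2-Ob, the bound against the floor of the untreated libraries. Psmb9, Tap1 and Psmb8 rose with 0.70, 1.19 and 0.32, and Tap2 with 0.13 was not called.

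Chaperones and enzymes that act with tapasin were counted in the same way. Of 8 genes for peptide loading and trimming, 6 were higher, 1 was lower and 1 was not called, where 37.6% of all tested genes were higher and 38% lower, with a median log2 fold change of 0.75. Calr, which encodes the chaperone calreticulin of the loading complex, rose from 603 ± 32.7 to 1701 ± 24.1 CPM (SD, n = 4, log2 fold change 1.495, FDR 1.52e-236, edgeR), and Pdia3, the oxidoreductase ERp57 that pairs with tapasin, rose from 718 ± 30.5 to 1651 ± 36.1 CPM (1.20, FDR 5.78e-174, edgeR). Uggt1 (0.84), Canx (0.78), Lnpep (0.71) and Hspa5 (0.70) were also higher. Most of these serve the folding of glycoproteins in general and not class I alone. Erap1, the aminopeptidase that trims peptides in the endoplasmic reticulum, fell from 57.1 ± 4.81 to 46.3 ± 1.73 CPM (SD, n = 4, log2 fold change -0.30, FDR 4.65e-06, edgeR), with every treated library below the untreated ones. Tapbpl, a tapasin-related editor of peptides, was at 10.9 ± 1.00 and 11.5 ± 0.624 CPM.

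The remaining proteasome genes and the cytosolic peptidases differed in both directions, where 37.6% of all tested genes were higher and 38% lower. Of the constitutive catalytic subunits, Psmb5 (log2 fold change -0.22, FDR 0.00745, edgeR) and Psmb6 (-0.13, FDR 0.00825, edgeR) were lower, and Psmb7 with 0.03 was not called. Of 5 activator and assembly genes, Psme4 (0.46) and Pomp (0.23), which assists assembly of the immunoproteasome, were higher, and Psme2 (-0.16, FDR 0.00213, edgeR, in a row shared with another locus), a subunit of the interferon-inducible activator PA28, was lower. The other PA28 subunit of that complex, Psme1, was at 94.7 ± 6.83 and 102 ± 3.91 CPM and was not called. Of 6 cytosolic peptidases that cut or destroy peptides before transport, Tpp2 (0.62), Npepps (0.28) and Lap3 (0.13) were higher and Blmh (-0.83) and Thop1 (-0.39) lower, and Nrdc with 0.04 was not called.

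Non-classical class I genes lie mostly in the Q, T and M regions and have more restricted roles. Of 9 tested genes in this list, 6 were higher and 1 lower, against 37.6% and 38% of all tested genes, with a median log2 fold change of 0.39. Without untreated replicate 1 the number of lower genes was 2. Another 9 did not pass the filter, and H2-L, which was put in this list although it is a classical heavy chain gene, had no row. H2-Q6 was at 5.44, 8.04, 7.86 and 6.09 CPM in untreated libraries and at 29.5, 24.5, 27.9 and 24.3 CPM in treated libraries. Its groups were far apart, with a log2 fold change of 1.94 (SE 0.116, FDR 6.19e-62, edgeR). H2-Q4 (1.09), H2-T10 (0.85), H2-T23 (0.53), the row of H2-Q7 and H2-Q9 (0.39) and the row of H2-T22 and H2-T9 (0.32) were also higher, and H2-M3, which presents formylated peptides, was lower (-0.26, FDR 0.0023, edgeR). H2-T23 encodes Qa-1, which presents a peptide cut from the leader of the D heavy chain to receptors of NK cells. H2-Q6, H2-Q7, H2-T22 and H2-T23 share stretches of read length with H2-D1, so that reads could have been divided among them in counting.

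Class I-like genes outside this family were more often called lower than higher in the comparison of all libraries. Of 9 tested genes, 1 was higher and 7 lower, where 37.6% and 38% of all tested genes were, with a median log2 fold change of -0.29. Hfe, which regulates iron uptake, fell from 5.51 ± 0.761 to 2.97 ± 0.263 CPM (SD, n = 4, log2 fold change -0.89, FDR 3.87e-10, edgeR). Of the ligands of the activating NK cell receptor NKG2D, Raet1e (-0.62), the merged row of Raet1a to Raet1d (-0.41) and Ulbp1 (-0.18) were lower and H60b with -0.39 was not called. Cd1d1 (-0.29), Mr1 (-0.14) and Fcgrt (-0.11) were lower by small amounts. Procr, the endothelial receptor of protein C, was the higher gene, at 31.8 ± 1.20 CPM without and 56.7 ± 1.37 CPM with TGFβ1 (SD, n = 4, log2 fold change 0.83, FDR 5.14e-58, edgeR). Without treated replicate 2 the number of lower genes in this list was 4.

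**Figure D4:**
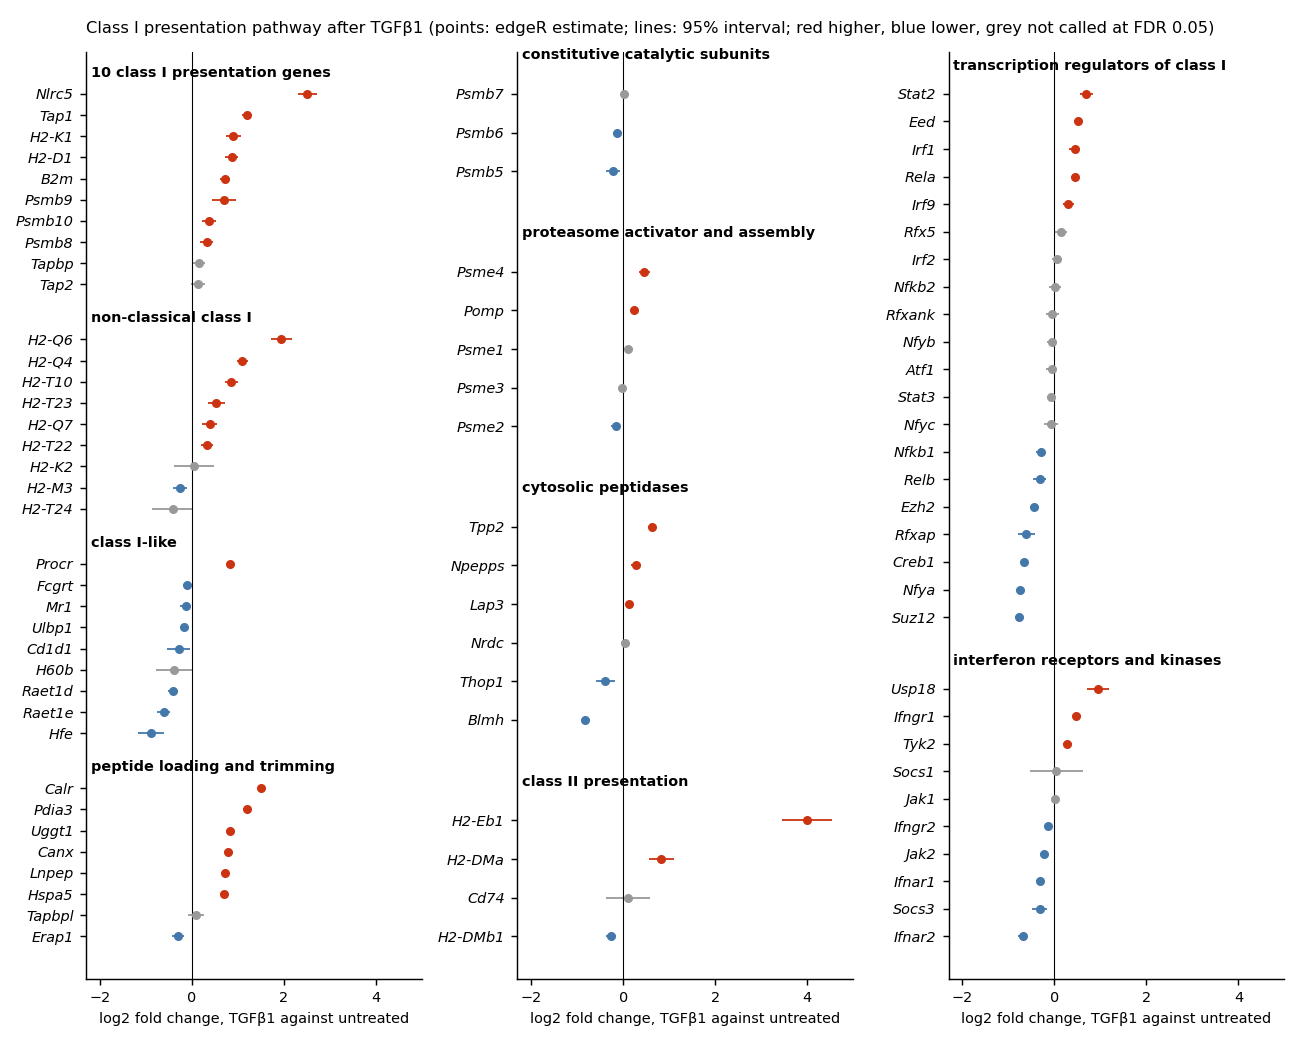
Log2 fold change with its 95% interval for each tested gene of the class I presentation pathway and related lists, in red where higher, blue where lower and grey where not called at an FDR of 0.05. Nlrc5 at 2.50 stands highest among the 10 class I presentation genes, and the 20 tested transcription regulators lie between -0.78 and 0.69.

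The transcription factors and cofactors of the class I promoter did not move in 1 direction. Of 20 tested regulators, 5 were higher, 7 lower and 8 not called, where 37.6% of all tested genes were higher and 38% lower. Their median log2 fold change was -0.06. Higher were the interferon-signalling factors Stat2 (0.69, FDR 1.55e-20, edgeR), Irf1 (0.44) and Irf9 (0.30), the NF-κB subunit Rela (0.44) and the Polycomb protein Eed (0.51). Stat2 was at 80.9, 96.3, 87.9 and 97.2 CPM in untreated libraries and at 147, 154, 156 and 127 CPM in treated libraries, without overlap. Irf2 (0.05, FDR 0.405, edgeR), Stat3 (-0.08, FDR 0.0809, edgeR) and Nfkb2 (0.01) were not called. Irf8 had 0 to 6 counts in untreated and 9 to 20 counts in treated libraries and was not tested. Among factors of the S-X-Y module, Rfxap of the RFX complex (-0.61), Creb1, which binds the X2 box (-0.66), and Nfya, which binds the Y box (-0.75), were lower, while Rfx5 was at 31.7 ± 2.67 and 34.7 ± 1.53 CPM and was not called. Rfxank, Atf1, Nfyb and Nfyc had log2 fold changes between -0.08 and -0.05 and were not called. Suz12 (-0.78) and Ezh2 (-0.44), which belong with Eed to the Polycomb repressive complex that methylates histone H3, and the NF-κB genes Nfkb1 (-0.30) and Relb (-0.32) were lower.

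Genes for interferons were at or under the floor, whereas genes for interferon reception were read well. None of 9 interferon genes, Ifng and Ifnb1 included, had more than 3 counts in any library. Of 10 receptor, kinase and feedback genes, 3 were higher and 5 lower, against 37.6% and 38% of all tested genes, with a median log2 fold change of -0.06. Usp18, an interferon-induced brake on the type I receptor, was at 47.4, 71.3, 72.1 and 71.0 CPM without and at 123, 133, 144 and 104 CPM with TGFβ1. The groups did not overlap, and the log2 fold change was 0.94 (SE 0.122, FDR 4.04e-14, edgeR). Ifngr1 (0.47) and Tyk2 (0.28) were higher. Ifnar2 (-0.69), Ifnar1 (-0.31), Socs3 (-0.32), Jak2 (-0.23) and Ifngr2 (-0.14) were lower, and Jak1 (0.02) and Socs1 (0.04) were not called.

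Within a group, the same libraries often held the extremes. Treated library 3 held the highest value of the treated group in 9 of the 10 genes, all but Nlrc5, and untreated library 4 held the lowest value of the untreated group in 6, H2-K1, H2-D1, Tap1, Tap2, Tapbp and Psmb9. The genes with a profile over the 8 libraries most like that of Nlrc5, by Pearson's r of log2 CPM, were Ass1, Slc25a17 and Hspa5, each with r = 0.999, and those most like H2-K1 were Mob3c (r = 0.994), Ankrd13a (r = 0.992) and Tmem230 (r = 0.991). All 8 points of each correlation share the difference between the groups, so these values are a description of the libraries.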

How the data were processed

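RNA of untreated SV-LECs (n = 4) and SV-LECs exposed to TGFβ1 (n = 4) was sequenced from stranded poly(A) libraries with single-end reads of 75 bases. The deposited table, which the authors made after alignment to GRCm38, holds whole-number counts for 55471 genes, without normalization. The submitters' processing notes name bcl2fastq 2.20.0.422, STAR 2.7.3a and featureCounts 1.5.1. The annotation release and the strand setting of counting are not given in the sources used here.

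Libraries were grouped by their labels. Genes were filtered with filterByExpr, scaled by TMM and compared with glmFit and glmLRT of edgeR 4.0.16 in R 4.3.3, as the study's methods name this test. Fold changes carry a prior count of 0.125, and p-values of the 13818 genes that passed the filter were adjusted by Benjamini-Hochberg, with an FDR threshold of 0.05. In simulated counts of 13648 genes, 175 of 200 changed genes and 22 others were called, none with the wrong sign. The 22 were a larger share of the calls than the FDR threshold. Only 200 genes were changed, equally up and down, whereas 75.6% of tested genes were called in the data. The simulation therefore does not show how scaling and calls behave at that share. Ratios were compared by exact two-sided permutation tests. Rows were matched by symbol, including merged symbols, and Nrdc through its older symbol Nrd1. Positions, exon lengths and shared stretches came from GENCODE M21, which matched 55230 genes, and promoters from RefSeq.

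The 10 genes, the pathway lists and the markers were chosen with earlier results of these data known. Named genes are the 10 genes, members of the lists, the 3 genes most correlated with Nlrc5 and with H2-K1, and genes that neighbour or share sequence with the 10. The alternatives were edgeR's quasi-likelihood test, DESeq2 1.42.0, DESeq2 size factors in edgeR, total counts, no filter, a filter of 1 CPM in 4 libraries, a prior count of 2, the replicate block, and each library left out in turn. Protein sequences were not used here, and 2 genes of the lists are not reported here.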

Additional observations from a re-analysis of the deposited data

Results flagged for a closer look

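Of 34 groups of 4 libraries examined by Dixon's test, 3 held a library that stood apart, and chance alone gives about 1 in 20. Psmb8 stood at 56.73 CPM in treated library 3, with the other treated libraries between 48.7 and 49.95 CPM. The log2 ratio of Psmb10 to Psmb7 was -2.723 in untreated library 1, against -2.84 to -2.83 in the others. The log2 ratio of H2-D1 to B2m was -1.054 in untreated library 4, against -0.85 to -0.84 in the others.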

How the results depend on the processing

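The 8 called genes, H2-K1, H2-D1, B2m, Tap1, Psmb8, Psmb9, Psmb10 and Nlrc5, kept their direction and passed the threshold under all 8 alternatives and without each library in turn. The number of the 10 genes called higher was 8 or 9 under the alternatives and 8 to 10 without 1 library, and none was called lower. Tapbp was called by DESeq2 (0.15, FDR 0.0475), with DESeq2 size factors in edgeR (0.15, FDR 0.0491) and with at least 1 CPM in 4 libraries (0.16, FDR 0.0428). Without 1 library its log2 fold change was 0.080 to 0.198, and that of Tap2 was 0.067 to 0.178, each on either side of the threshold, and the cause was not tested. With total counts in place of TMM the median of all genes was -0.07, 4627 genes were higher and 5899 lower, Nlrc5 had a log2 fold change of 2.44 and Tap2 0.07, and 2 proteasome activator genes and 2 non-classical class I genes were lower. Without a filter 27709 genes were tested. With the replicate number as a block, 5075 genes were higher and 5077 lower, 8 of the 10 genes were higher, and the FDR was 0.125 for Tap2 and 0.104 for Tapbp. Deviations of equally numbered libraries correlated between -0.19 and -0.03, so the numbers gave no pairing. For genes near the floor of 3 counts, among them the interferon genes, depth limits what could be seen. All errors refer to technical replicates.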

Other observations

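Class II genes, which present peptides to CD4+ T cells and are under a transactivator of their own, Ciita, differed widely in level in SV-LECs. H2-DMb1 had the highest CPM of the 11 listed, without regard to length, at 32.1 ± 0.955 CPM without and 26.7 ± 0.491 CPM with TGFβ1 (SD, n = 4), and the others stood under 6 CPM in mean. H2-Eb1 was at 0.337, 0.451, 0.393 and 0.254 CPM in untreated libraries and at 4.81, 6.72, 6.00 and 6.17 CPM in treated libraries, with a log2 fold change of 4.00 (SE 0.276, FDR 3.3e-80, edgeR). H2-Ob had at most 1 count in each untreated library and was at least 7.76-fold higher with TGFβ1, against the mean floor of 3 counts over the untreated libraries, at 1.05 ± 0.186 CPM (SD, n = 4). H2-Oa, the partner chain of H2-Ob, had at most 1 count in any library, and H2-Aa and H2-Ab1, which pair with each other, had at most 7. Cd74, the invariant chain, was at 1.54 ± 0.405 and 1.63 ± 0.554 CPM, and Ciita had 0 to 2 counts in untreated and 4 to 8 counts in treated libraries, too few to be tested.

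A non-coding gene that overlaps Nlrc5 on the opposite strand, 9330175E14Rik, was at 0.771, 0.488, 0.655 and 0.152 CPM in untreated libraries and at 2.38, 3.16, 1.92 and 1.98 CPM in treated libraries, a log2 fold change of 2.16. It shares 0.046% of the stretches of read length of Nlrc5 and stood far below it in every library.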
